A study of Mus musculus with 29 samples.

Results

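The genes described here are those of the proteasome, taken as the protein-coding genes whose symbol starts with Psm, a letter from a to g and a number, with at least 10 counts in at least 3 of the 4 h libraries. Of the 54532 genes in the tables, 50 protein-coding genes carried such a name and 48 passed. Psma8 and Psmb11, subunits known from testis and thymus, did not pass, with at most 8 and 9 counts in any 4 h library. The members with the fewest counts were Psmb9, with 7 to 85 per library, Psmb8, with 22 to 106, and Psmc3ip, with 25 to 82, all well inside the threshold, since Psmb9 reached 10 counts in 22 of 23 libraries. The 48 comprised 7 alpha and 7 beta subunits of the 20S core, 6 ATPase and 11 non-ATPase subunits of the 19S cap, 3 beta subunits of the immunoproteasome, 5 activator genes, the regulator Psmf1, 4 chaperones of 20S assembly and 3 of 19S assembly. Psmc3ip was taken by name alone, since its product is a recombination cofactor and not a proteasome subunit.

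The proteasome is the protease that degrades most proteins tagged with ubiquitin. Its 20S core is a barrel of alpha and beta rings with the catalytic sites inside, and its 19S cap recognises ubiquitin, unfolds the substrate with a ring of ATPases and removes the ubiquitin chain. When its capacity falls short, cells are known to raise many subunit genes together through the transcription factor NRF1, encoded by Nfe2l1, and ubiquitin conjugates are known to accumulate in nervous tissue after ischemia.

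RNA was measured by sequencing of poly-A selected spinal cord RNA from mice on a C57BL6 background, after aortic cross clamping (ACC), which interrupts blood flow to the lower cord, or after Sham surgery. At 4 h, the thoracic and lumbar cord was taken from wild-type (WT), miR-128 global knockout (miR128KO) and motor-neuron miR-155 knock-in (miR155KI) mice. The ACC libraries entering the tests came from 3 WT, 3 miR128KO and 5 miR155KI mice, and the Sham libraries from 3 WT, 4 miR128KO and 4 miR155KI mice. A further miR128KO ACC library was left out, as in the study. ACC and Sham mice were littermates, and the sexes were not separated. At 1 h, the thoracolumbar and cervical cord of 3 WT mice after ACC were compared, with same-numbered libraries read as 1 mouse. The regions were tested without a term for the mouse, and no Sham mice were measured at 1 h. That comparison therefore holds both the clamp and the position along the cord.

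Library totals ran between 15596512 and 33056693 counts, and the 48 genes took 0.3595 to 0.408% of the counts of the ACC libraries and 0.351 to 0.419% of those of the Sham libraries. Neuron, astrocyte and oligodendrocyte markers were all detected, and caudal Hox genes summed to 118 to 142 CPM (counts scaled to library size) in thoracolumbar and 7.78 to 10.8 CPM in cervical libraries at 1 h. Mir155hg, the host gene of miR-155, was at 0.371 to 1.57 CPM in miR155KI libraries and at most 0.287 CPM in all others. The rows of the miR-128 genes were at or near 0 in every genotype, so the knockout could not be checked in poly-A selected RNA. Hspa1b, a heat shock gene, was at 378 to 764 CPM in the 11 ACC libraries and 1.58 to 4.41 CPM in the 11 Sham libraries at 4 h. In bulk cord, fewer cells of a type and less RNA per cell cannot be told apart.

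The proteasome genes sat over a wide range of levels, shown here per length as CPM per kb of exon. Psmc5, an ATPase of the 19S ring, was the highest, at 184 ± 16.6 in ACC and 174 ± 21.5 CPM per kb in Sham mice (SD, n = 11 each). Psmc1, another ATPase, followed at 97.2 ± 4.67 in ACC and 92.5 ± 8.05 CPM per kb in Sham mice. The next 3 in Sham mice, the catalytic subunit Psmb5 (80.0 ± 6.31), Psmb4 (77.7 ± 7.16) and Psma6 (76.2 ± 5.85 CPM per kb), lay within each other's SD. Among the constitutive subunits of the core, Sham levels ran between 21.1 and 76.2 CPM per kb for the alpha genes and between 28.4 and 80.0 CPM per kb for the beta genes. The 19S non-ATPases ran between 7.87 CPM per kb for Psmd11 and 56.9 for Psmd2. Exon length is the union over transcripts, so long untranslated ends lower a gene's place in this order.

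The assembly chaperones lay below the constitutive subunits other than Psmd11, at 2.26 to 13.5 CPM per kb (20S) and 3.85 to 12.1 CPM per kb (19S) in Sham mice. The inducible immunoproteasome subunits Psmb8 and Psmb9 were at the bottom. Psmb8 reached 0.891 ± 0.216 in ACC and 1.05 ± 0.174 CPM per kb in Sham mice, and Psmb9 reached 0.341 ± 0.124 in ACC and 0.448 ± 0.230 CPM per kb in Sham mice.

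**Figure D1:**
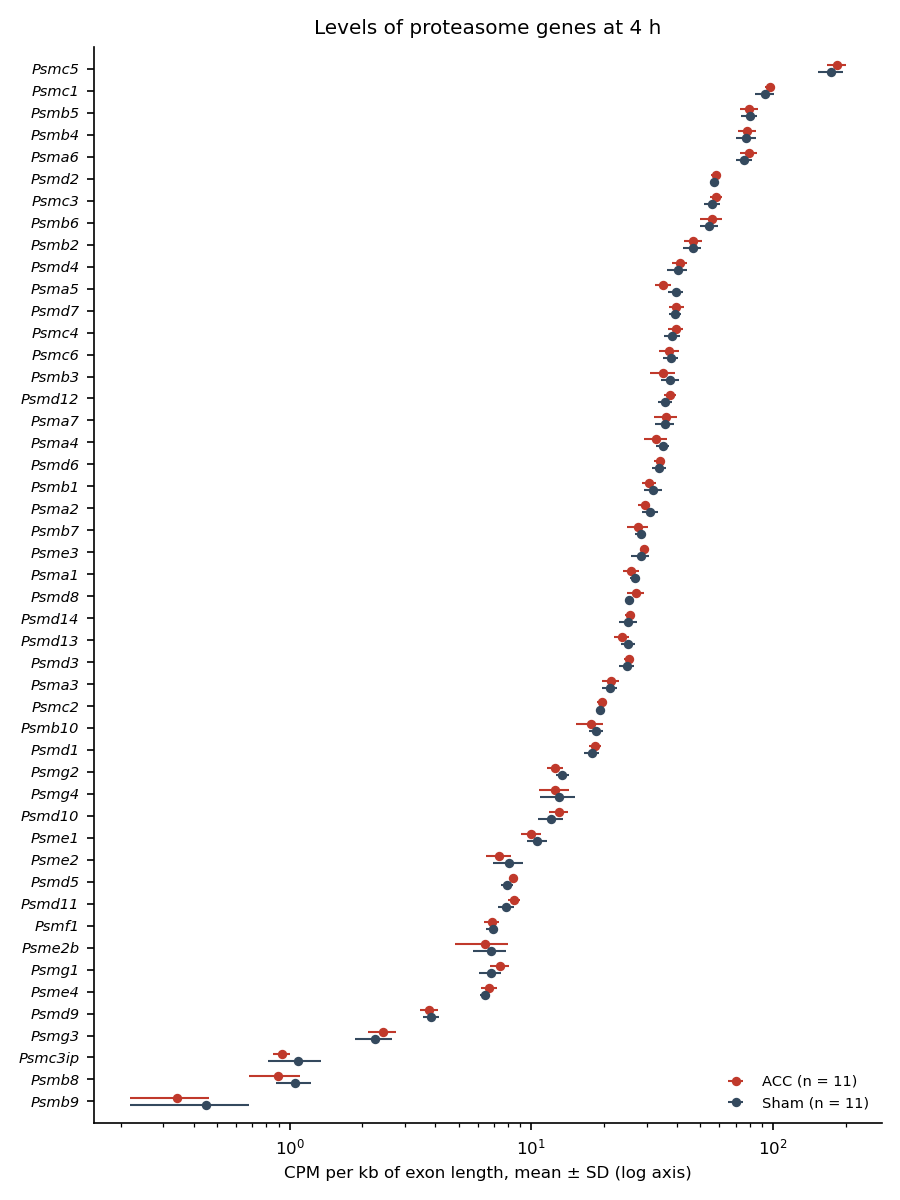
Level of the 48 proteasome genes in ACC and Sham mice at 4 h, as CPM per kb of exon on a log axis, with points for the mean and bars for the SD over 11 libraries each. Psmc5 is at the top and Psmb8 and Psmb9 are at the bottom, and the ACC and Sham points lie furthest apart for Psmb9, Psmb8 and Psmc3ip, the genes with the fewest counts.

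The promoters of several of these genes are shown because subunit genes are known to be raised through antioxidant response elements, to which NRF1 and NRF2 bind. The sequences are 60-base windows upstream of RefSeq start sites (GRCm38.p6), written in the direction of the gene. In the Psmb5, Psmb6, Psmd9 and Adrm1 windows, capitals mark the core of the antioxidant response element, TGACNNNGC. In Zfand2a they mark a heat shock element of 2 inverted units, TTCNNGAA, and the Psma5 window held none of the motifs searched. Psmb5 is read from the minus strand at chr14:54618009-54618068, Psmb6 from the plus strand at chr11:70525297-70525356 and Psmd9 from the plus strand at chr5:123228130-123228189. Psma5 is on the plus strand at chr3:108256866-108256925, Adrm1 on the plus strand at chr2:180171400-180171459 and Zfand2a on the minus strand at chr5:139484654-139484713.
Psmb5: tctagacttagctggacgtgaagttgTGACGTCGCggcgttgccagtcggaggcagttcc
Psmb6: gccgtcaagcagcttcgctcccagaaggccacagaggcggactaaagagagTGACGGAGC
Psmd9: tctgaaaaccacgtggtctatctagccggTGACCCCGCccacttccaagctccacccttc
Psma5: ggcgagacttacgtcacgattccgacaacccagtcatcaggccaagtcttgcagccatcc
Adrm1: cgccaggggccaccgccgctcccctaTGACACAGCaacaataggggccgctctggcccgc
Zfand2a: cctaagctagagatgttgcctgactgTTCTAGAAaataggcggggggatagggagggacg

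RefSeq promoters, from 250 bases before the start site to 50 from it on, were at hand for 41 of the 48 genes (44 promoters). The antioxidant response element core was found on either strand in 6 of the 41, namely Psmb5, Psmb6, Psmc6, Psmd12, Psmd9 and Psme4. That was 13.6% of the 44 promoters, against 12.4% of all 32851 promoters in the table. A heat shock element of 2 units (GAANNTTC or TTCNNGAA, both of which read the same on either strand) was in 11.4% of them and in 15.1% of all promoters. The element of 3 units, which contains one of 2 units, was in 0 of the 44 promoters and in 0.603% of all promoters. The CCAAT box was in 31.8% of them and in 37.4% of all promoters. The member promoters thus held each of these letter patterns about as often as, or less often than, the whole table, as a description with no test, and a match is not evidence of binding.

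At 4 h after the clamp, the constitutive subunits taken by the naming rule were measured at nearly the same level in ACC and Sham mice. Cap genes outside that rule, Adrm1 (which rose) and Sem1 (not called), are described below. The 31 constitutive 20S and 19S genes had a median log2 fold change (ACC minus Sham) of 0.02, with a range of -0.17 to 0.11, against a median of -0.01 over all 17759 genes tested. Of the 31, 29 (93.5%) lay within 0.1 of 0 on the log2 scale, as did 49.3% of all genes tested. The 31 were measured more precisely, with a median SE of 0.045 against 0.073 over all genes, so the 2 shares are not on equal terms. The 95% intervals of the 31 fold changes reached at most -0.26 and 0.20. Among all 48 genes, 0 were higher in ACC and 1, Psma5, was lower in edgeR's quasi-likelihood test with Benjamini-Hochberg adjustment over all genes. In the same test 9.37% of all genes were higher in ACC, 7.04% were lower and 16.4% were called in either direction. At an unadjusted p under 0.05, 3 members were higher and 1 was lower, and 29% of all genes passed in either direction. DESeq2 also called 0 higher and 1 lower. In none of the 48 did the ACC libraries lie wholly apart from the Sham libraries, which happened for 1.24% of all genes.

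**Figure D2:**
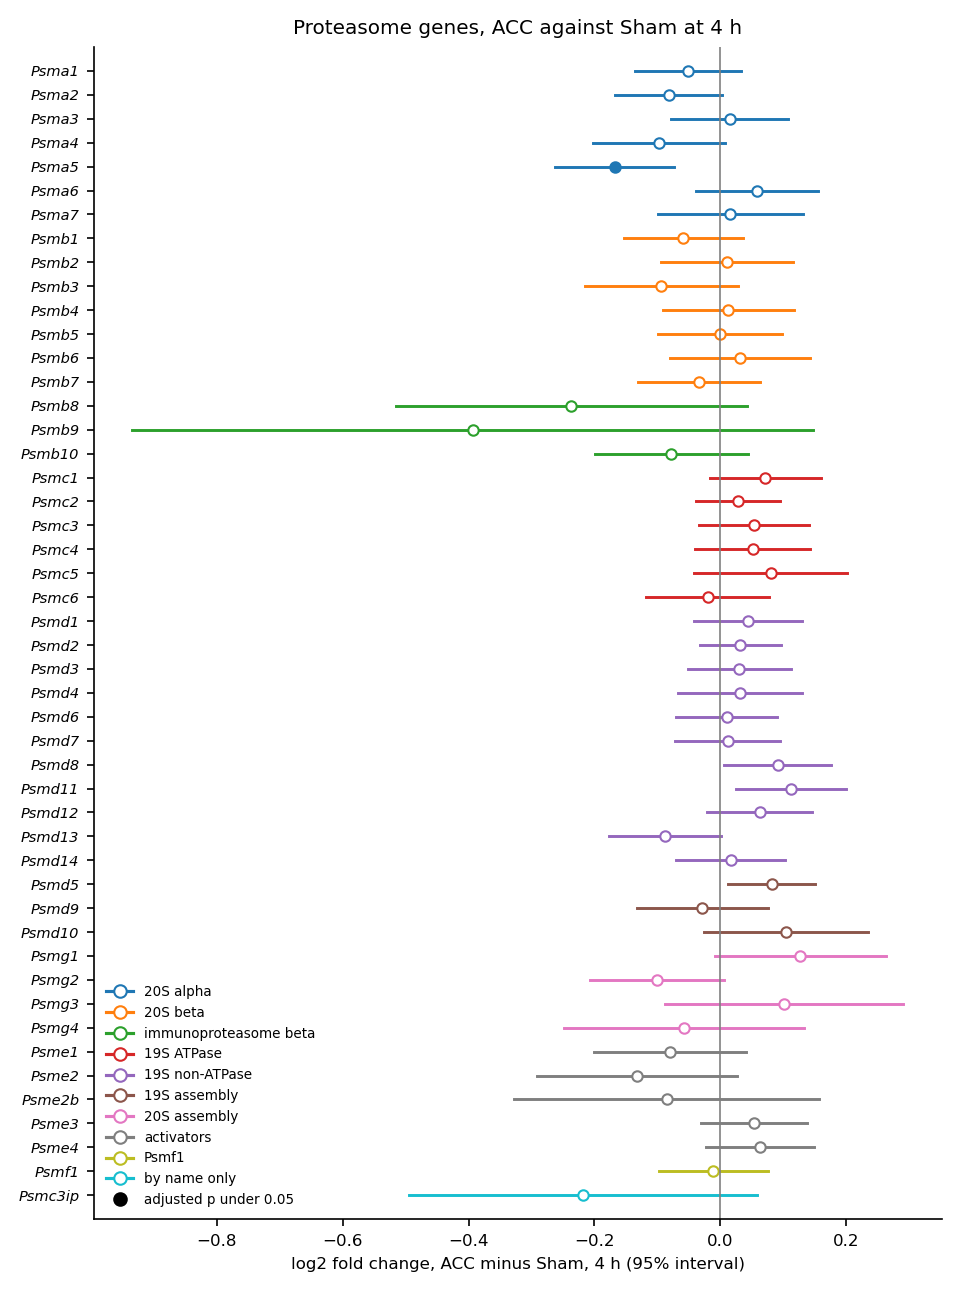
Log2 fold change (ACC minus Sham, 4 h) of the 48 proteasome genes with 95% intervals, coloured by role, from 11 ACC and 11 Sham libraries; a filled point marks an adjusted p under 0.05. Only Psma5 is filled, and the intervals of Psmb8 and Psmb9 are the widest of the subunits.

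Psma5 (ENSMUSG00000068749, GRCm38 chromosome 3, 108256926 to 108279974, plus strand), an alpha subunit of the outer ring of the core, was the gene that fell. A gene on the other strand, 1700010K24Rik, overlaps it. Its lowest, median and highest levels were 42.3, 45.0 and 53.9 CPM in ACC mice, against 46.0, 51.8 and 57.8 CPM in Sham mice. The groups overlapped, with the ACC median below the lowest Sham library. The log2 fold change was -0.17 (SE 0.046, 95% interval -0.26 to -0.07; edgeR adjusted p = 0.0114). In the authors' deposited table, Psma5 was likewise the single member past an adjusted p of 0.05, with a log2 fold change of -0.17 (adjusted p = 0.00718), where 14.1% of all genes with an adjusted p were past it. The call held in each of 22 fits that left out 1 library. It was lost, at -0.13 (edgeR adjusted p = 0.136), when same-numbered mice of a genotype were treated as pairs, a numbering that the data did not bear out as a pairing.

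The other alpha genes, which gate the entry of the barrel, gave a median of -0.05 over all 7, with 4 negative and 3 positive values. Psma4 was at -0.10 (SE 0.051) and Psma6 at 0.06 (SE 0.048), neither past the threshold. The 7 beta genes had a median of -0.00 and a range of -0.09 to 0.03. Psmb5, the chymotrypsin-like site, had 63.5, 73.1 and 84.8 CPM as lowest, median and highest in ACC mice, against 62.8, 71.0 and 83.5 CPM in Sham mice. Its fold change was -0.00 with a 95% interval of -0.10 to 0.10. Psmb6, the caspase-like site, was at 0.03 (interval -0.08 to 0.14), and Psmb7, the trypsin-like site, at -0.03 (interval -0.13 to 0.06). All 3 catalytic genes therefore overlapped fully between ACC and Sham mice, and changes larger than these intervals were not seen.

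In the pooled comparison, the 19S genes taken by the naming rule sat slightly higher on the scale than the 20S genes, and none of those 19S genes was called. Of the 17, 15 had a positive fold change, with a median of 0.03 and a range of -0.09 to 0.11, whereas 6 of the 14 20S genes were positive, with a median of -0.02. The 6 ATPases had a median of 0.05, and Psmc5 had lowest, median and highest levels of 225, 257 and 309 CPM in ACC mice, against 197, 241 and 315 CPM in Sham mice. Among the non-ATPases, 10 of 11 were positive. Psmd14, the deubiquitinase of the cap, was at 0.02 (SE 0.042), and Psmd4, a ubiquitin receptor, at 0.03 (SE 0.048). By genotype, the 19S and 20S medians were 0.025 and 0.023 in WT, 0.116 and 0.057 in miR128KO, and -0.001 and -0.108 in miR155KI mice. The gap was thus nearly absent in WT mice. The difference between 19S and 20S genes was not tested.

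Psmd11 (ENSMUSG00000017428, chromosome 11, 80428615 to 80473248, plus strand), a scaffold subunit of the cap, had the largest positive value of the constitutive genes in that comparison. It had 48.95, 54.1 and 61.5 CPM as lowest, median and highest in ACC mice, against 44.9, 51.4 and 55.9 CPM in Sham mice, so the groups overlapped. Its log2 fold change was 0.11 (SE 0.043; edgeR adjusted p = 0.0720), short of the threshold. Without WT ACC library 3, WT Sham library 2 or WT Sham library 3 the adjusted p became 0.0451, 0.0387 or 0.0477. Psmd8 was at 0.09 (SE 0.042; edgeR adjusted p = 0.139). Psmd13 was the lowest non-ATPase, at -0.09 (SE 0.043; edgeR adjusted p = 0.176).

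The genes that help build the proteasome gave no call at 4 h. Psmd5, a chaperone of 19S assembly, was at 0.08 (SE 0.034; edgeR adjusted p = 0.0997) and Psmd10, also known as gankyrin, at 0.10 (SE 0.064). Psmd9 was at -0.03. Among the 20S chaperones, the fold change was 0.13 (SE 0.066) for Psmg1, -0.10 for Psmg2, 0.10 for Psmg3 and -0.06 for Psmg4. The 4 are expressed at low levels, and their intervals reached -0.25 and 0.29. Psmf1, the inhibitor PI31, was at -0.01 (interval -0.10 to 0.08), Psme3, a nuclear activator, at 0.05 and Psme4, the activator PA200, at 0.06.

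The 3 immunoproteasome genes, which interferon is known to induce, had negative fold changes in the pooled comparison, without a call. Psmb8 and Psmb9 were low in every library. Psmb8 had 1.12, 2.60 and 3.39 CPM as lowest, median and highest in ACC mice, against 2.11, 3.03 and 3.60 CPM in Sham mice (log2 fold change -0.24, SE 0.136; edgeR adjusted p = 0.258). Psmb9 had 0.584, 1.28 and 1.93 CPM in ACC mice, against 0.303, 1.59 and 3.26 CPM in Sham mice (-0.39, SE 0.264; edgeR adjusted p = 0.347). The interval of Psmb9 ran from -0.93 to 0.15, and changes inside it were not detectable at 7 to 85 counts per library. Psmb10 was far more abundant, with 24.0, 29.1 and 39.2 CPM in ACC mice, against 27.9, 31.2 and 35.7 CPM in Sham mice (-0.08, SE 0.059; edgeR adjusted p = 0.418). The ACC and Sham libraries overlapped for all 3. Within genotypes the signs were mixed and none was called. Psmb8, Psmb9 and Psmb10 were at 0.12, -0.47 and -0.14 in WT mice. They were at -0.47, 0.15 and 0.15 in miR128KO and at -0.35, -0.74 and -0.20 in miR155KI mice. Psmb8 and Psmb9 lie near each other on chromosome 17, at 34197721 to 34201454 and 34181988 to 34187764, and Psmb10 lies on chromosome 8 at 105935735 to 105938444.

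Each inducible subunit replaces a constitutive one, and the ratio of their transcripts per length was small for 2 of the 3 pairs. Psmb8 was at 1.11 ± 0.253% of Psmb5 in ACC mice and 1.31 ± 0.222% in Sham mice (SD, n = 11 each). Psmb9 was at 0.616 ± 0.237% of Psmb6 in ACC mice and 0.823 ± 0.435% in Sham mice. Psmb10 was at 63.7 ± 7.33% of Psmb7 in ACC mice and 65.5 ± 4.16% in Sham mice. These percentages depend on the union exon lengths, such as 1705 bases for Psmb10 and 3421 for Psmb7. Long untranslated ends shift them, and they are not ratios of subunits in the assembled proteasome. Of the 48 genes, 19 overlap a gene on the other strand, among them Psmb9 (Tap1), Psmb8 (Gm20496), Psmb10 (Gm16156) and Psme1 (Emc9), and 10 overlap one on the same strand. The strand setting of the counting is not given in the sources used here, so the levels of these genes are uncertain to that extent.

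The PA28 genes, activators that interferon is also known to induce, likewise gave no call. Psme1 had 19.99, 21.9 and 27.2 CPM as lowest, median and highest in ACC mice, against 18.97, 23.4 and 27.2 CPM in Sham mice (log2 fold change -0.08, SE 0.059; edgeR adjusted p = 0.397). Psme2 had 11.3, 12.5 and 16.1 CPM in ACC mice, against 11.0, 13.7 and 17.5 CPM in Sham mice (-0.13, SE 0.077; edgeR adjusted p = 0.269). The Psme2 and Psme2b transcripts are 96.2% identical, so the split of reads between them is uncertain, and Psme2b was at -0.09 (SE 0.119). Of the 15 genes listed for MHC class I processing and interferon, these 5 included, Irf1 alone passed the threshold. Over all genes, 9.37% were higher and 7.04% lower, so 1 of 15 was no more than that share. Irf1 rose by 0.36 (SE 0.121; edgeR adjusted p = 0.0393), and the list median was -0.06. Irf1, an interferon regulatory factor, had 2.80, 5.34 and 6.89 CPM in ACC mice, against 2.90, 3.80 and 4.82 CPM in Sham mice. Microglia, which express immunoproteasome genes, had 3 of 7 markers lower in ACC (Tmem119, P2ry12 and Csf1r). The 7 summed to 233 to 318 CPM in ACC mice, against 291 to 362 CPM in Sham mice, and none was at 0. Neutrophil markers summed to 16.8 to 72.7 CPM in ACC mice, against 29.7 to 121 CPM in Sham mice, and lymphocyte markers to 0.711 to 3.21 CPM in ACC mice, against 1.13 to 8.68 CPM in Sham mice. The part of those sums in the immunoproteasome values was not tested.

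Among 15 partners of the proteasome, 3 rose at 4 h and 0 fell, where 9.37% of all genes were higher and 7.04% lower. The median log2 fold change of the 15 was 0.02, against -0.01 over all genes, so the list as a whole was about level. Zfand2a, a stress-induced protein that binds the 19S cap, had 70.2, 75.4 and 86.2 CPM as lowest, median and highest in ACC mice, against 48.6, 51.5 and 53.6 CPM in Sham mice. The groups did not overlap, and the log2 fold change was 0.58 (SE 0.037; edgeR adjusted p = 1.95e-12). Adrm1, the ubiquitin receptor RPN13 of the cap, which the naming rule does not take, had 68.5, 74.7 and 81.8 CPM in ACC mice, against 52.8, 65.1 and 68.8 CPM in Sham mice. Its fold change was 0.22 (SE 0.042; edgeR adjusted p = 4.15e-04), with an overlap of the groups at their edges. Ubqln1, a shuttle that carries ubiquitinated proteins to the proteasome, rose by 0.20 (SE 0.035; edgeR adjusted p = 1.19e-04), with 268, 285 and 312 CPM in ACC mice, against 235, 247 and 273 CPM in Sham mice. Sem1, a small subunit of the cap outside the naming rule, was at -0.07, and Pomp, the maturation factor of the core, at -0.03, neither past the threshold.

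Of the 10 genes that control proteasome transcription, 2 rose and 0 fell, with a median of 0.06, beside the same 9.37% higher and 7.04% lower over all genes. Nfe2l1, which encodes NRF1, had 399, 425 and 473 CPM as lowest, median and highest in ACC mice, against 374, 426 and 459 CPM in Sham mice (log2 fold change 0.04, SE 0.038; edgeR adjusted p = 0.556). Its activity is known to be set mainly after translation, which these data do not measure. Ddi2, the protease that activates NRF1, rose by 0.14 (SE 0.047; edgeR adjusted p = 0.0337), with 45.9, 55.4 and 58.6 CPM in ACC mice, against 42.5, 48.3 and 53.9 CPM in Sham mice. Maff, a small Maf partner of NRF1 and NRF2, rose by 1.59 (SE 0.198; edgeR adjusted p = 5.56e-06). It had 13.6, 19.3 and 29.2 CPM in ACC mice, against 3.64, 5.88 and 11.7 CPM in Sham mice, without overlap. Nfe2l2, which encodes NRF2, was at 0.12 (SE 0.068; edgeR adjusted p = 0.240).

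Of 8 genes of the p97 unfoldase 2 rose, and of 7 genes of aggregate clearance 2 rose, beside 9.37% of all genes. Among the p97 genes, Ubxn4 rose by 0.33 (SE 0.037; edgeR adjusted p = 1.19e-07) and Faf2 by 0.18 (SE 0.035; edgeR adjusted p = 6.88e-04), both membrane adaptors of that unfoldase, while Vcp, which encodes p97, was at 0.03. Ubxn4 had 89.6, 107.8 and 110.4 CPM as lowest, median and highest in ACC mice, against 78.1, 82.8 and 84.7 CPM in Sham mice, without overlap. Faf2 had 62.2, 66.3 and 71.5 CPM in ACC mice, against 53.7, 59.1 and 64.9 CPM in Sham mice, with overlap. Among the genes of aggregate clearance, the co-chaperone Bag3 rose by 1.19 (SE 0.063; edgeR adjusted p = 2.68e-14) and the receptor Tax1bp1 by 0.11 (edgeR adjusted p = 0.0174). Bag3 had 61.7, 82.8 and 92.3 CPM in ACC mice, against 28.5, 35.3 and 42.6 CPM in Sham mice, without overlap. Tax1bp1 had 159, 168 and 177 CPM in ACC mice, against 142, 156 and 172 CPM in Sham mice, with overlap. None of the genes on these lists fell, and the list medians were 0.03 for p97 and 0.01 for aggregate clearance.

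**Figure D3:**
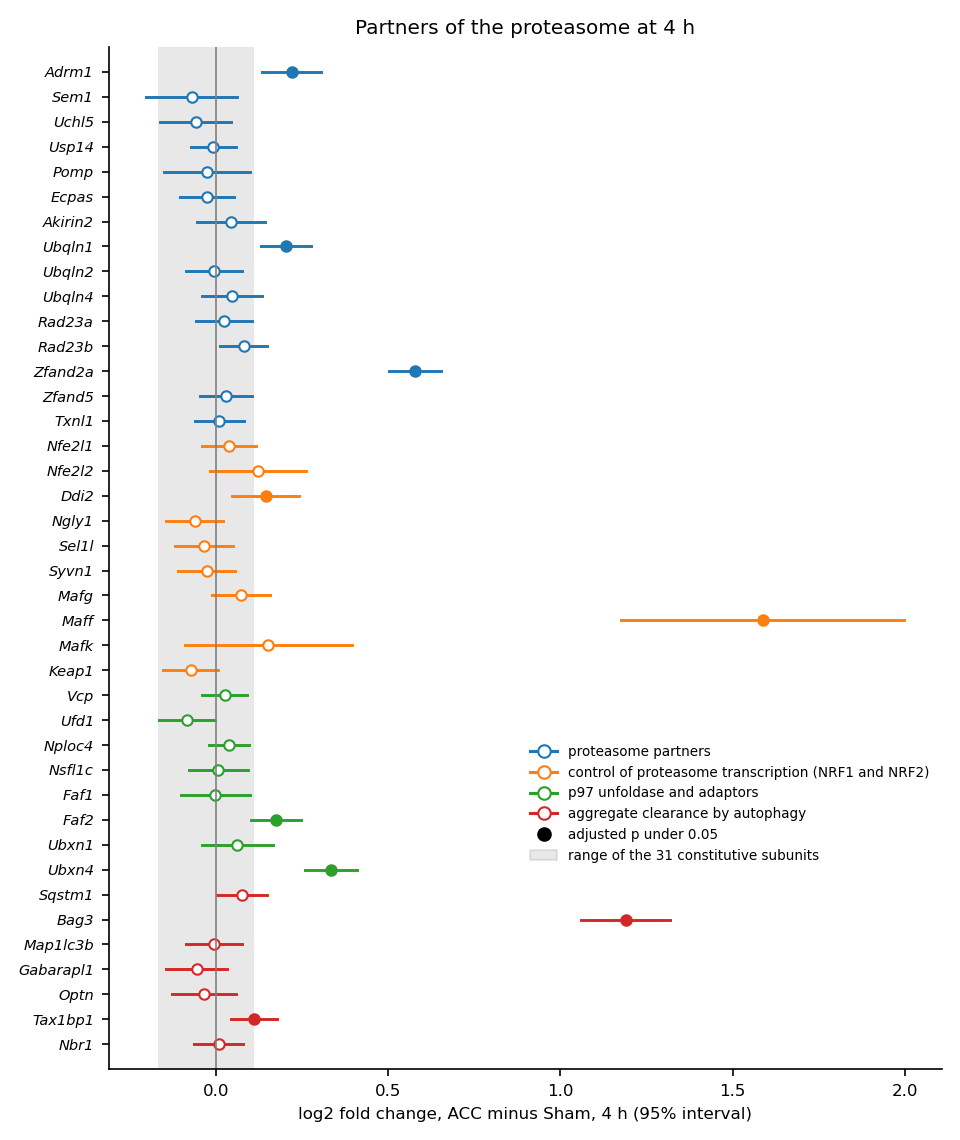
Log2 fold change (ACC minus Sham, 4 h) with 95% intervals for partner genes, coloured by list, from 11 ACC and 11 Sham libraries; filled points have an adjusted p under 0.05, and the grey band is the range of the 31 constitutive subunits, -0.17 to 0.11. Bag3, Maff and Zfand2a lie far right of the band, and Adrm1, Ubqln1, Ubxn4 and Faf2 just right of it.

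The promoter windows shown above can be set beside these values. Psmb5, Psmb6, Psmd9 and Psme4 each hold an antioxidant response element core within 47 bases of the start site. Their fold changes were -0.00, 0.03, -0.03 and 0.06. Psmc6 and Psmd12, which hold the core further upstream, were at -0.02 and 0.06, and none of the 6 was called. On the lists reported here, Adrm1, Maff, Ubxn4, Faf2 and Tax1bp1 also hold that core and rose. Sem1, Uchl5, Zfand5, Vcp, Nfe2l2, Mafg, Mafk, Map1lc3b and H2-K1 hold it too and were not called. Zfand2a and Bag3 hold the heat shock element of 2 units and rose. Akirin2, B2m, Erap1, Mafg, Nploc4, Nsfl1c, Optn, Tap1 and Vcp hold that element and were not called. The 5 members that hold it (Psmb5, Psmb9, Psmd4, Psme3 and Psmf1) were not called either. A link between motif and change was not tested. No factor's binding was measured.

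Within single libraries the subunit genes shifted together, by more than ACC and Sham differed. Each gene's log2 CPM was set against its own mean over the 22 libraries, and the median of the 31 constitutive genes was taken. The highest was miR155KI Sham library 2, at 0.18, where 29 of 31 genes were above their mean. It was also the 4 h library with the largest share of mitochondrial counts, 6.42%. The lowest were WT ACC library 2 at -0.12, with 3 of 31 above, and miR155KI Sham library 4 at -0.12, with 0 of 31 above. Library miR128KO ACC 4 was at 0.14, with 29 of 31 above. The 31 genes of a library share its RNA and scaling, so these are single observations of each mouse. How far other genes shifted alike in these libraries was not counted, so the shifts are not shown to be particular to the proteasome. The SD over libraries of a constitutive gene's log2 CPM had a median of 0.106 in ACC and 0.107 in Sham mice.

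**Figure D4:**
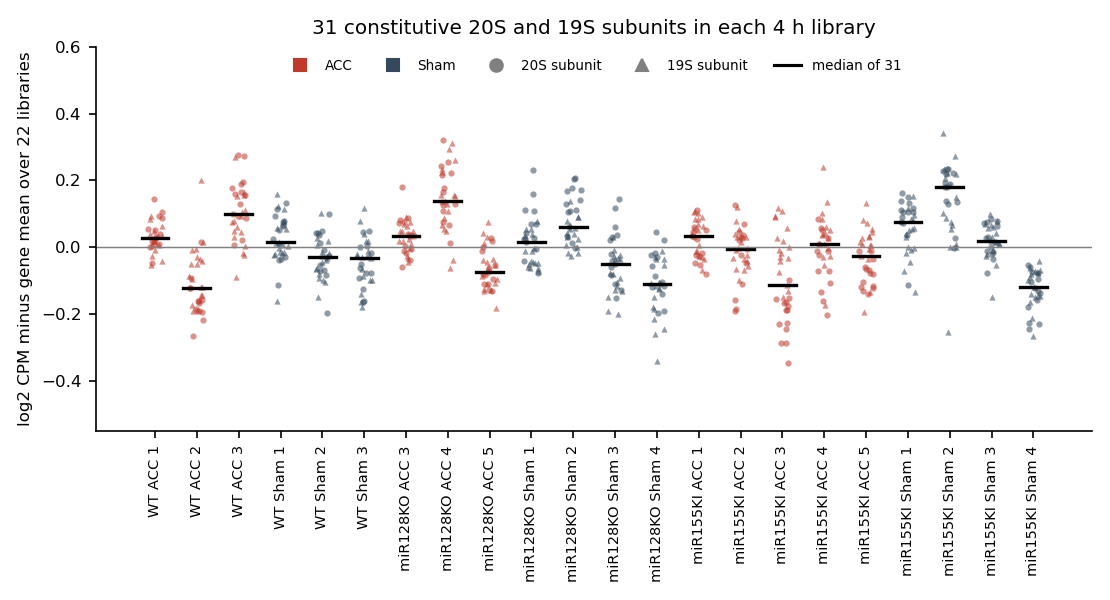
Log2 CPM of the 31 constitutive subunits minus each gene's mean over the 22 libraries, for each 4 h library, with ACC libraries left of Sham libraries within a genotype; circles are 20S genes, triangles 19S genes and bars the median of 31. The medians lie between -0.12 and 0.18, and ACC and Sham medians are mixed.

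Within each genotype, a single member passed the threshold, in miR155KI mice. In WT mice 0 of 48 were called in edgeR, against 1.73% of all genes (1.44% higher and 0.291% lower), with 2 at an unadjusted p under 0.05 (12.7% of all genes) and 0 in DESeq2. In miR128KO mice 0 were called in edgeR, against 2.73% of all genes (2.07% higher and 0.659% lower), with 3 at an unadjusted p under 0.05 (16% of all genes) and 0 in DESeq2. In miR155KI mice 1 was higher, Psmd11, against 3.29% of all genes, and 0 were lower, against 1.32%, or 4.62% in either direction, with 1 higher and 6 lower at an unadjusted p under 0.05 (18.2% of all genes in either direction). The median of the 31 constitutive genes was 0.03 in WT, 0.09 in miR128KO and -0.03 in miR155KI mice. In miR155KI mice all 7 alpha genes had negative values, from -0.21 to -0.01, and the widest intervals of the constitutive genes reached -0.42 and 0.36.

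Psmd11, named after its values were seen, had 55.2, 54.1, 56.5, 61.5 and 55.2 CPM in the 5 miR155KI ACC mice, against 47.4, 52.1, 47.0 and 44.9 CPM in the 4 miR155KI Sham mice. All 5 ACC libraries were above all 4 Sham libraries, and how often that happened over all genes in this genotype was not counted. The log2 fold change was 0.24 (SE 0.059; edgeR adjusted p = 0.0158). In WT mice it had 51.1, 52.7 and 48.95 CPM after ACC, against 51.4, 55.9 and 54.999 CPM after Sham surgery, with a fold change of -0.09 (SE 0.073; edgeR adjusted p = 0.672). In miR128KO mice it had 53.4, 54.2 and 53.7 CPM after ACC, against 49.6, 51.5, 51.8 and 45.8 CPM after Sham surgery (0.12, SE 0.067; edgeR adjusted p = 0.376). The miR128KO groups thus did not overlap either, and such separation was not particular to miR155KI mice. The test of a difference among the genotypes gave an unadjusted p of 0.00540 and an edgeR adjusted p of 0.992, so the genotypes were not shown to differ. The Sham level of Psmd11 was itself lower than in WT, by a log2 fold change of -0.18 in miR155KI and -0.13 in miR128KO mice. The joint edgeR test among Sham mice gave an unadjusted p of 0.0346 and an adjusted p of 0.687.

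The miR155KI call for Psmd11 rested on few mice. Without miR155KI ACC library 4 the log2 fold change was 0.21 (edgeR adjusted p = 0.0503), without miR155KI Sham library 1 it was 0.23 (0.0590) and without miR155KI Sham library 4 it was 0.21 (0.0613). Without that last library, Psma5 and Psmb3, a structural beta subunit, were called lower in miR155KI ACC mice instead, at -0.26 and -0.31 (edgeR adjusted p = 0.0468 and 0.0460). With it, Psma5 was at -0.21 and Psmb3 at -0.24 (edgeR adjusted p = 0.0972 and 0.105). The miR155KI Sham library 4 is the library in which all 31 constitutive genes were below their mean.

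**Figure D5:**
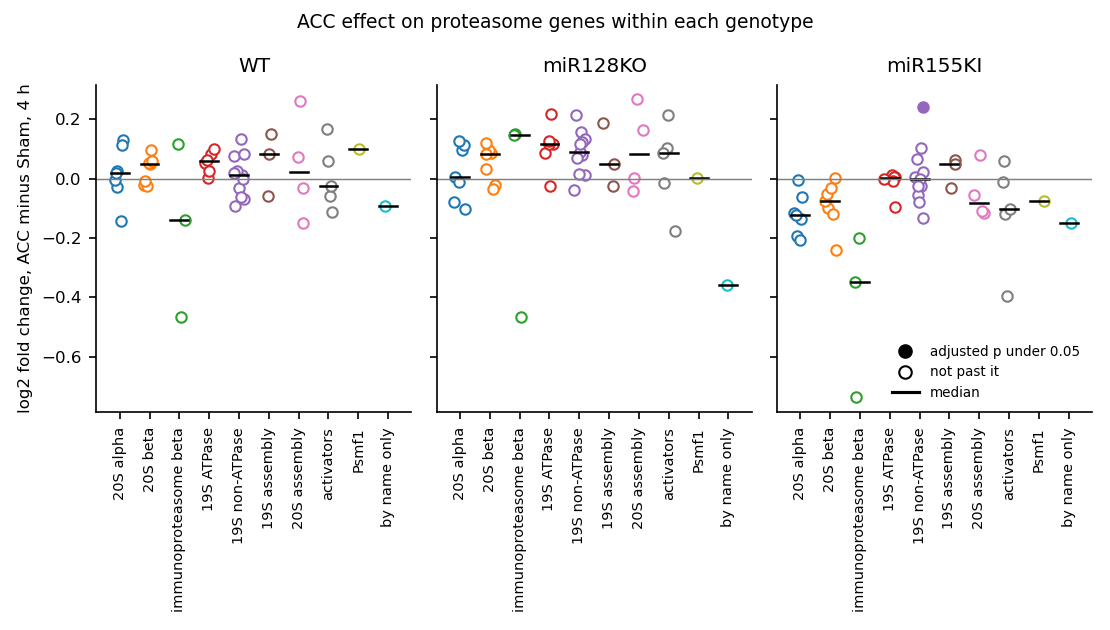
Log2 fold change (ACC minus Sham, 4 h) of the 48 proteasome genes within WT, miR128KO and miR155KI mice, grouped by role, with bars for medians; a filled point has an adjusted p under 0.05. Psmd11 in miR155KI mice, at 0.24, is the filled point, and the lowest point of each panel is Psmb9 in WT, Psmb8 in miR128KO and Psmb9 in miR155KI mice.

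Across all 19581 genes tested, the difference of the ACC effect among the genotypes was called for 0 genes (0%) in edgeR and 1 in DESeq2, with 618 (3.16%) at an unadjusted p under 0.05. Of the 48 proteasome genes, 0 were called in either tool and 4 had an unadjusted p under 0.05. Among Sham mice, the levels differed among genotypes for 0 proteasome genes in edgeR and in DESeq2, against 0.0868% of all genes called in edgeR. At an unadjusted p under 0.05 there were 2, Psmc1 and Psmd11, against 6.87% of all genes. The constitutive fold changes in Sham mice had a median of -0.01 for miR128KO minus WT and 0.04 for miR155KI minus WT.

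At 1 h, the thoracolumbar and cervical cord of the clamped mice gave no call among the proteasome genes. In edgeR, 0 were higher, against 0.208% of all 17810 genes, and 0 were lower, against 0.23%, or 0.438% in either direction, with 1 member each way at an unadjusted p under 0.05 and 8.25% of all genes in either direction. DESeq2 called 0 members, and edgeR with the mouse as a block also called 0. Over all genes 37 were higher and 41 lower, or 46 and 34 when scaled by library totals alone. Leaving out 1 library gave 88 and 54 without thoracolumbar library 3, 21 and 25 without thoracolumbar library 2, 24 and 31 without cervical library 2, and 16 and 18 without cervical library 3. The 31 constitutive genes had a median log2 fold change (thoracolumbar minus cervical) of -0.02 and a range of -0.23 to 0.09. Of them, 29 lay within 0.1 of 0, as did 49.0% of all genes, with a median SE of 0.071 against 0.119 over all genes. The authors' deposited table for 1 h likewise had 0 members past an adjusted p of 0.05, where 0.831% of all genes were past it. Thoracolumbar library 3 stood apart from the other 2 in early stress genes: the lowest and highest thoracolumbar values were 15.2 and 384 CPM for Fos and 3.35 and 381 CPM for Hspa1b. Without that library, 0 members were called as well.

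The 2 members with the smallest p at 1 h were the PA28 genes, which lay in opposite directions. In mice 1, 2 and 3, Psme2 had 11.4, 12.4 and 13.1 CPM in the thoracolumbar cord, against 16.5, 16.6 and 13.9 CPM in the cervical cord, without overlap. Its log2 fold change was -0.35 (SE 0.118, unadjusted p = 0.00836 in edgeR; adjusted p = 0.356). Psme2b, whose reads cannot be told surely from those of Psme2, had 6.53, 8.21 and 3.73 CPM in the thoracolumbar cord of mice 1, 2 and 3, against 5.97, 4.77 and 5.43 CPM in the cervical cord, and lay the other way, at 0.19 (SE 0.234; edgeR adjusted p = 0.890). Psme1 had 20.6, 27.1 and 23.1 CPM in the thoracolumbar cord, against 20.8, 19.8 and 19.01 CPM in the cervical cord, so that 1 thoracolumbar library lay within the cervical range. Its log2 fold change was 0.25 (SE 0.108, unadjusted p = 0.0357 in edgeR; adjusted p = 0.550). Among the 48 genes, Psme2 and Psmd14 alone had thoracolumbar libraries wholly apart from cervical ones, a share below the 13.7% of all genes that did with 3 libraries a group. Psmd14 had 78.6, 78.5 and 76.9 CPM in the thoracolumbar cord, against 72.1, 70.5 and 76.6 CPM in the cervical cord (0.09, interval -0.05 to 0.24).

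Psma5, which fell at 4 h, was at -0.06 at 1 h (interval -0.21 to 0.09). The immunoproteasome genes were at -0.46 (SE 0.258) for Psmb8, -0.29 (SE 0.341) for Psmb9 and 0.06 (interval -0.16 to 0.27) for Psmb10, with intervals that include 0. Among the partners, Zfand2a had 48.2, 50.2 and 50.9 CPM as lowest, median and highest in the thoracolumbar cord, against 46.3, 50.1 and 50.9 CPM in the cervical cord, with a fold change of 0.02 (SE 0.074), and none of these lists had a gene past the threshold at 1 h. Whether the 1 h and 4 h effects differ was not tested, since the controls differ. In the authors' deposited table comparing ACC mice with high against low chemokine levels at 4 h, groups chosen on measured values, 0 proteasome genes were past an adjusted p of 0.05, where 0.282% of all genes were past it.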

How the data were processed

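Whole-number counts per gene were used as deposited by the authors. The submitters' processing notes name fastp, featureCounts 1.5.0-p3 and HISAT2 2.0.5, with mm10 (GRCm38) as the build. The strand setting is not given in the sources used here. The authors' log2 fold changes and p-values are copied from the deposited DESeq2 tables, with the 4 h and chemokine comparisons turned round. Counts were tested with edgeR 4.0.16 in R 4.3.3: TMM scaling, filterByExpr (minimum count 10), two-sided quasi-likelihood F tests with robust dispersion, and Benjamini-Hochberg adjustment over all genes (threshold 0.05). The 4 h comparison of ACC with Sham used 22 libraries without a genotype term. Genotype contrasts came from 1 fit of 6 groups. The 1 h fit had no term for the mouse, which was an alternative. The SE is the absolute log2 fold change divided by the square root of F. Alternatives included DESeq2 1.42.0. Scripts were tested on simulated data.

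CPM are counts scaled by the library total times its TMM factor, and levels per kb divide them by the exon length deposited by the authors. Same-numbered 1 h libraries were read as 1 mouse from the mouse numbers in their titles, which do not state it outright. Their correlations of deviations were -0.0118, -0.0487 and 0.0562 over 14132 genes. At 4 h the 9 same-numbered pairs gave -0.223 to 0.190, so the numbers were not taken as pairs.

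The members, gene lists and naming rule were chosen with earlier results of these data known. Named with their values over the libraries (lowest, median and highest where a group has over 5) are members called at 4 h, Psmb8, Psmb9, Psmb10, Psme1 and Psme2, the 2 members with the smallest p at 1 h, and, from each list, up to 4 called genes. A further gene list is not reported here.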

Additional observations from a re-analysis of the deposited data

How the results depend on the processing

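Of 30 alternatives at 4 h, the count of members higher in ACC moved with 3: leaving out 1 library each gave 0 to 1 (Psmd11). The count lower (1, Psma5) moved with 1, the replicate block that pairs same-numbered mice, which gave 0. In miR155KI mice the count higher (1, Psmd11) became 0 with no filter on low counts (log2 fold change 0.23, edgeR adjusted p = 0.0692) and 0 with the replicate block (0.25, edgeR adjusted p = 0.120). Leaving out 1 library each gave 0 to 1 higher and 0 to 2 lower. The counts of WT, miR128KO, the genotype differences, Sham and 1 h (mouse block included) stayed at 0 under every alternative run. The 4 h median of the 31 constitutive genes ran between 0.00 and 0.04. Scaling by library totals gave it 0.00, with a median of all genes of -0.02. Low counts limit Psmb8, Psmb9 and Psmc3ip, and 3 libraries a group limit the 1 h comparison. Over all genes, 37 were higher and 41 lower at 1 h, against 66 and 71 with DESeq2, 139 and 133 with no filter, and 46 and 34 with library totals alone. Leaving out 1 library gave 16 to 88 higher and 18 to 54 lower. The replicate block gave 1125 higher and 734 lower at 4 h, against 1664 and 1250 without it. The 1 h median of the constitutive genes (-0.02) ran between -0.05 and 0.01, so its sign was not stable.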
